A study of Mus musculus with 8 samples.

Results

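Mitochondrial fatty acid oxidation and ketone body metabolism were followed through 29 genes in MCE301 cells, an epithelial line from the mouse colon, during exposure to sodium butyrate. The members were taken by gene symbol from the array platform's annotation, and each gene was represented by its probe set (a group of short probes read as 1 signal) with the highest mean over the 8 arrays. Of the 29 members, 27 had a probe set annotated to that gene alone, out of 12393 such genes on the array. No probe set of this kind was listed for Acsl1 or Acsl3, and these long-chain acyl-CoA synthetase genes were not analysed here. A filter on low signals, at least 2 of 8 arrays above the array-wide median of 144.5, was passed by 25 members and by 7340 genes in all. Of these 25 members, 24 lay above that median on both arrays at 0 h, and Slc27a1 lay above it on 1 of them. Decr1 and Ppara stayed below it on all 8 arrays and were not tested in the main fit.

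The MCE301 line carries a temperature-sensitive large T-antigen of simian virus 40 as a transgene, inherited from the mice it was made from, in all 4 groups. Cultures received 2 mM sodium butyrate for 0, 6, 12 or 24 h, and 2 arrays were hybridised with total RNA for each time. Whether the arrays of each pair hold RNA from different cultures is not stated, so the p-values reflect spread that may be purely technical. Cells kept without butyrate were not assayed at the later times in these samples, so the action of butyrate and of time in culture cannot be told apart.

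Long-chain fatty acids are activated to acyl-CoA at the outer side of the mitochondrion and enter through the carnitine shuttle, whereas butyrate can enter without it. Inside, each turn of the oxidation spiral takes an acyl-CoA through dehydrogenation, hydration, a further dehydrogenation and thiolysis, and passes electrons to the respiratory chain. Colonic epithelium is known for using butyrate made by gut bacteria as its main fuel, and the acetyl-CoA formed can also be turned into ketone bodies.

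The 8 arrays had been scaled by the authors to a common level, with a 2% trimmed mean signal of 500.2 on each, and their medians ranged from 140.1 to 152.8. Of the 10 epithelial markers, 9 passed the filter and Vil1 did not; the summed signal of the 10 was 62940 and 70290 at 0 h and 93730 and 114600 at 24 h. All 8 fibroblast and all 5 endothelial markers lay below the median on every array. Among immune markers only Cd68 passed, and the list's sum was 682 and 662 at 0 h and 1350 and 1396 at 24 h. Among adipocyte markers only Fabp4 passed, with sums of 147 and 66.5 at 0 h and 272 and 184 at 24 h, while Adipoq, Lep, Cidec and Retn were below the median throughout. The part of these marker shifts in the results that follow was not tested.

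Expression of the oxidation enzymes moved mainly upward. At 24 h, 15 of the 25 tested members were higher than at 0 h (60%) and 4 were lower (16%), where 24.6% of all tested genes were called higher and 23.5% lower. The members were chosen with earlier results of these data known, so this comparison is not independent of them. The 15 were Cpt1a, Cpt2, Slc25a20, Acadm, Acads, Acadvl, Hadha, Hadhb, Hadh, Acaa2, Etfa, Etfb, Etfdh, Slc27a1 and Acat1. The 4 were Acsl5, Eci1, Fabp5 and Plin2. A gene was called at an adjusted p under 0.05 in the limma fit over all 7340 genes. The median change over the members was 0.71 on the log2(signal + 32) scale, beside 0.04 over all genes. That scale understates the change of low signals.

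Fewer members had been called at the earlier times. At 6 h, 4 members were higher (Cpt1a, Acadm, Hadhb and Etfdh; 16%, against 9.06% of all genes) and Plin2 alone was lower (4%, against 6.68%). At 12 h, 12 were higher (48%, against 18.1%) and 3 were lower (12%, against 17.5%). The members' median change was 0.20 at 6 h and 0.46 at 12 h, beside 0.01 and 0.03 over all genes. All 3 comparisons use the same arrays at 0 h. Wherever a member was called against 0 h, the 2 later arrays did not overlap the 2 arrays at 0 h. That also held for members not called, such as Acads and Acadvl at 6 h. The share over all genes was not counted, so the lack of overlap adds no support to the calls.

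**Figure D1:**
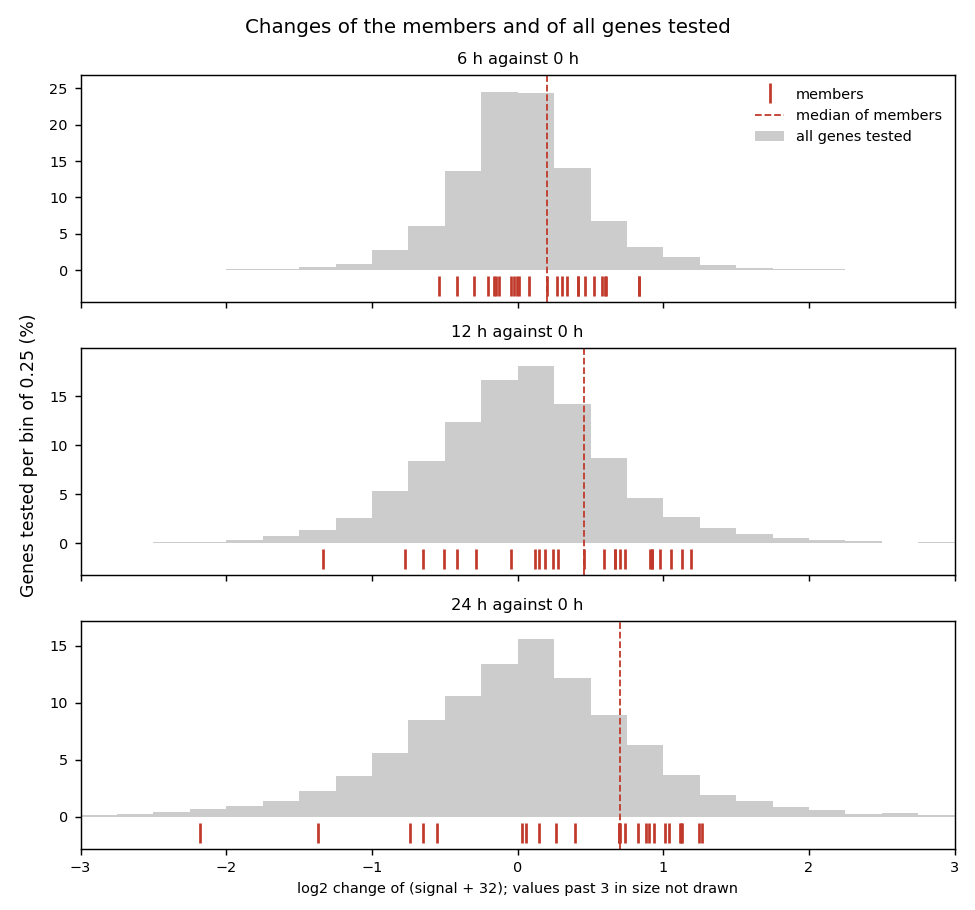
Histograms of the log2(signal + 32) change against 0 h over all 7340 tested genes at 6, 12 and 24 h, with the 25 tested members as ticks and their median as a dashed line. The members' median moves from 0.20 at 6 h to 0.71 at 24 h while the histograms stay centred near 0. The members were chosen with earlier results of these data known.

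Every call at 6 h depended on single arrays. Without replicate 1 at 0 h, Cpt1a had an adjusted p of 0.0582 in limma, and this was the only 1 of 18 alternatives that ended its call. Acadm and Etfdh each lost the call in 6 of the 18, Hadhb in 3 and Plin2 in 13. With any 1 array at 0 or 6 h left out, fewer members were called higher at 6 h, and fewer of all genes were called as well. Plin2 at 6 h was called in no fit that left out an array. With the replicate number as a block, Hadha (adjusted p = 0.0347) and Slc27a1 (0.0312) were called higher at 6 h as well.

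The stretches before the annotated starts of 4 genes are printed here because 3 of them, Acadm, Etfdh and Hadhb, rose by 6 h and 1, Eci1, fell later. The 3 are the members called higher at 6 h whose 250 bases overlap no annotated gene. Of the 4 members lower at 24 h, Eci1 is the one with a window of that kind. The sequences are from RefSeq, build GRCm38.p6, and end at the base before the start: Acadm at chr3:153944644-153944893 on the minus strand, Etfdh at chr3:79628768-79629017 on the minus strand, Hadhb at chr5:30155003-30155252 on the plus strand and Eci1 at chr17:24426433-24426682 on the plus strand. Capitals mark any match, on either strand, to the GC box GGGCGG, the CCAAT box CCAAT or the nuclear receptor core motif AGGTCA.
Acadm: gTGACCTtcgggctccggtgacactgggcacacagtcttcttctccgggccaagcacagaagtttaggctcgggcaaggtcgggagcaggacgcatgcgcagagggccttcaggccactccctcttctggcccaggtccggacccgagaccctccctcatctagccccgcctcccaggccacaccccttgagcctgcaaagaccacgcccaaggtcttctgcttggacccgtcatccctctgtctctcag
Etfdh: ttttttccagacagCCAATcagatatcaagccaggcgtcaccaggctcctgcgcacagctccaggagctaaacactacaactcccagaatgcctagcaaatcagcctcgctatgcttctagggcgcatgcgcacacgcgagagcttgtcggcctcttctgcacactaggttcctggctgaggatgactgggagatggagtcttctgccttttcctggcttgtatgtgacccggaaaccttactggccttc
Hadhb: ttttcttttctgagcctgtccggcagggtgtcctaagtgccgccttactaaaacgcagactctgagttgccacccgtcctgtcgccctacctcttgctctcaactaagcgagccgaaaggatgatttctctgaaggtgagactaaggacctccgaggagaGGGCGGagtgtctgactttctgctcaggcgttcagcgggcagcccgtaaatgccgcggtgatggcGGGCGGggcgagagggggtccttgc
Eci1: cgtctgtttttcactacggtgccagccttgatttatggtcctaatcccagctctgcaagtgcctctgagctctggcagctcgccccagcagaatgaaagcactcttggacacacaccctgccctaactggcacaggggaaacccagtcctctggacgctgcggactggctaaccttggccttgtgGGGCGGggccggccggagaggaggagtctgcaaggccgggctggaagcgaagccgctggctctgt

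Of the 29 members, 25 had such a window, and some had several starts, giving 29 windows. A GC box was found in 18 of the 29 (62.1%), against 32.7% of 32851 windows of the same length over all annotated genes. A CCAAT box was found in 13 (44.8%, against 33.8%), and it is the motif in the Etfdh sequence above. The core motif that nuclear receptors such as the peroxisome proliferator-activated receptors bind was found in 5 windows (17.2%, against 14%), of Acadm, Acadvl, Cpt1a, Echs1 and Plin2. The direct repeat of the core motif with 1 base between the copies, which contains it, was found in 0 of the 29 and in 0.0335% of all windows. These are matches of letters in a fixed window only. No share was taken over expressed genes alone or over windows of like GC content. Some of the 29 windows overlap or belong to the same gene, and they include members not tested or not called. What the difference in GC box share reflects was not tested. Hadha and Hadhb start next to each other and run in opposite directions: their windows, extended to 300 bases across each start, shared 228 bases.

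All 3 genes of the carnitine shuttle were higher at 12 and 24 h. Cpt1a (probe set 1460409_at) encodes the outer-membrane carnitine palmitoyltransferase that controls entry of long-chain acyl groups. Its signals were 488 and 509 at 0 h, 940.3 and 887 at 6 h, 1179.8 and 1075 at 12 h and 1274 and 998 at 24 h. All 6 treated arrays lay above both arrays at 0 h, and the increase of 0.83 ± 0.17 (log2, ± SE of the fit) at 6 h reached 1.13 ± 0.17 at 12 h and 1.13 ± 0.17 at 24 h (limma adjusted p = 0.00915, 0.000735 and 0.000389), a 2.19-fold rise at 24 h.

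Cpt2 (1416772_at), the inner-membrane transferase that hands the acyl group back to CoA, gave 252 and 225 at 0 h, 283 and 338 at 6 h, 355 and 398 at 12 h and 432 and 386 at 24 h. Every treated array was above both arrays at 0 h, and the change was 0.59 ± 0.16 at 12 h and 0.71 ± 0.16 at 24 h (adjusted p = 0.0173 and 0.00524). Slc25a20 (1423108_at), the carrier that exchanges acylcarnitine for carnitine across the inner membrane, gave 337 and 496 at 0 h, 498 and 731 at 6 h, 881 and 734 at 12 h and 701 and 1093 at 24 h. The arrays at 0 h were the 2 lowest, but they differed from each other, and the 24 h change was 1.04 ± 0.26 (adjusted p = 0.00809). Its other probe set gave 0.30 at 24 h with an adjusted p of 0.188, and without replicate 1 at 0 h or replicate 2 at 24 h the adjusted p was 0.0779 or 0.0737.

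**Figure D2:**
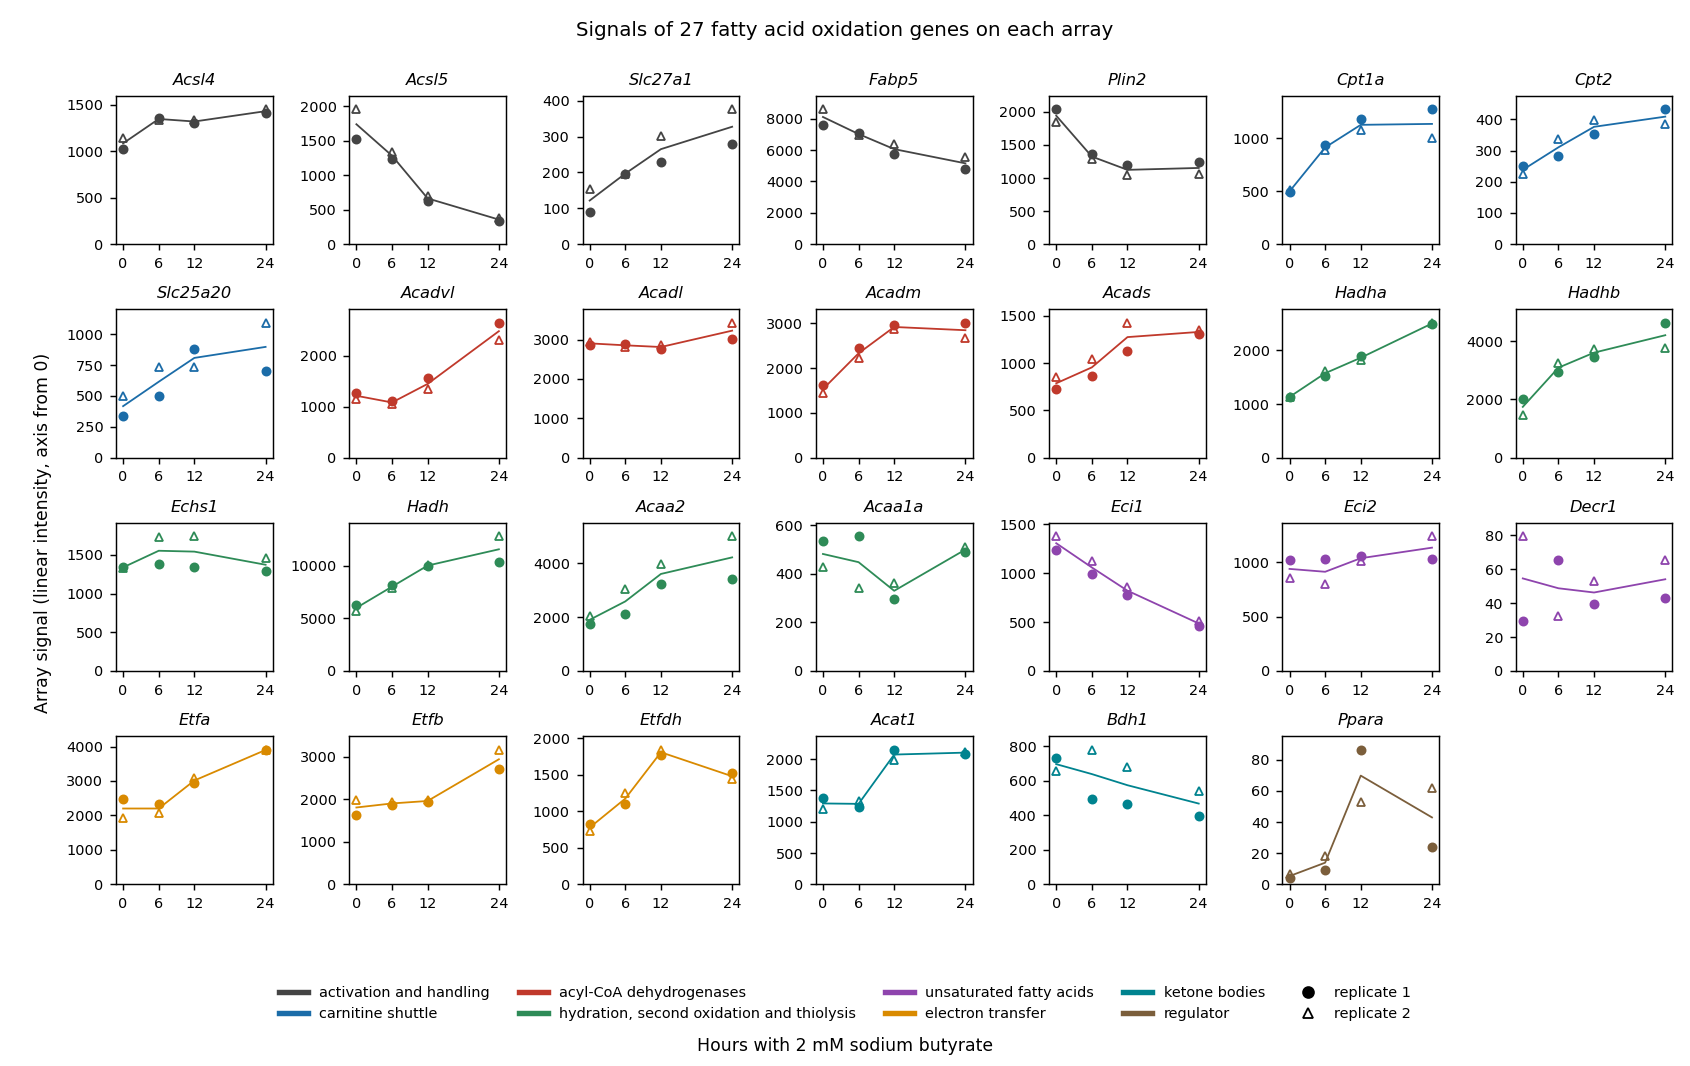
Signals of the 27 members with a probe set of their own, as deposited (linear intensity, axis from 0 in each panel), against hours in 2 mM butyrate. Filled circles are replicate 1, open triangles replicate 2 and lines the means of 2 arrays: Cpt1a sits near 500 at 0 h and at 887 or more on all treated arrays, while Acsl5 falls at each later time.

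Of the 4 acyl-CoA dehydrogenases, which carry out the opening step and divide the substrates by chain length, 3 were higher at 24 h. Acadm (1415984_at), the medium-chain enzyme, gave 1626 and 1432 at 0 h, 2443 and 2216 at 6 h, 2966 and 2869 at 12 h and 3012 and 2678 at 24 h. Its treated arrays were all above both arrays at 0 h. It was higher by 0.60 ± 0.16 at 6 h, 0.92 ± 0.16 at 12 h and 0.88 ± 0.16 at 24 h (adjusted p = 0.0295, 0.00164 and 0.00123), a 1.84-fold rise at the last time.

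Acads (1460216_at), the short-chain enzyme that acts on butyryl-CoA itself, gave 722 and 849 at 0 h, 863 and 1044 at 6 h, 1122 and 1426 at 12 h and 1305 and 1352 at 24 h. Its 4 arrays at 12 and 24 h were above all others. The change was 0.27 ± 0.18 at 6 h, 0.67 ± 0.18 at 12 h and 0.74 ± 0.18 at 24 h (adjusted p = 0.362, 0.0155 and 0.00682), and without replicate 1 at 0 h the adjusted p at 24 h was 0.0567.

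Acadvl (1424184_at), the membrane-bound very-long-chain enzyme, was called at 24 h but not before, with signals of 1268 and 1157 at 0 h, 1106 and 1056 at 6 h, 1554 and 1336 at 12 h and 2645 and 2314 at 24 h. The 6 h arrays were below both arrays at 0 h and the 24 h arrays well above all others. Its changes were −0.16 ± 0.16 at 6 h and 0.24 ± 0.16 at 12 h, neither called (adjusted p = 0.565 and 0.264), and 1.01 ± 0.16 at 24 h (adjusted p = 0.000606). Acadl, the long-chain enzyme, had signals between 2763 and 3426 over the 8 arrays and was called at no time. Its 24 h change was 0.15 ± 0.15 with a 95% interval of −0.19 to 0.48.

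Of the 6 tested genes of the central steps, 4 were higher at 24 h. Hadha and Hadhb encode the alpha and beta subunits of the mitochondrial trifunctional protein, which performs hydration, dehydrogenation and thiolysis of long-chain intermediates. Hadha (1452173_at) gave 1140.2 and 1124 at 0 h, 1530.1 and 1619 at 6 h, 1900.2 and 1828 at 12 h and 2489.7 and 2518 at 24 h. The 2 arrays of each time were close, no time overlapped another, and the signal was higher at each later time. The change was 0.46 ± 0.15 at 6 h (adjusted p = 0.0575, 0.0347 with the replicate block), 0.70 ± 0.15 at 12 h (0.00458) and 1.12 ± 0.15 at 24 h (0.000178).

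Hadhb (1426522_at) gave 2011 and 1473 at 0 h, 2933 and 3244 at 6 h, 3466 and 3744 at 12 h and 4633 and 3775 at 24 h. Both arrays at 0 h were far below the 6 others but also apart from each other. Hadhb was higher by 0.83 ± 0.19, 1.05 ± 0.19 and 1.26 ± 0.19 at 6, 12 and 24 h (adjusted p = 0.0167, 0.00213 and 0.000426), 2.4-fold at the last. Its other probe set gave 0.78 at 24 h, and the call held.

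Hadh (1455972_x_at), the dehydrogenase for short and medium-chain 3-hydroxyacyl-CoA, gave 6305 and 5708 at 0 h, 8149.7 and 7896 at 6 h, 10006 and 10049.7 at 12 h and 10325 and 12829.8 at 24 h. The groups of the 4 times did not overlap, and the order was that of time. It was higher by 0.74 ± 0.16 at 12 h and 0.94 ± 0.16 at 24 h (adjusted p = 0.00631 and 0.00107). Some probes of a set with this suffix may match other transcripts. Its 2 other probe sets above the filter rose by 1.30 and 0.86 at 24 h.

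Acaa2 (1428146_s_at), the mitochondrial thiolase that splits off acetyl-CoA, gave 1751 and 2046 at 0 h, 2104 and 3058 at 6 h, 3239 and 3960.3 at 12 h and 3426 and 5003 at 24 h. Replicate 2 was above replicate 1 at every time, and all 4 arrays at 12 and 24 h were above the earlier ones. Its change was 0.91 ± 0.23 at 12 h and 1.12 ± 0.23 at 24 h (adjusted p = 0.0129 and 0.00304). At 6 h its change was 0.42 ± 0.23 and was not called (adjusted p = 0.269). Its 2 other probe sets above the filter differed in size at 24 h, with changes of 1.17 and 0.57, and at 12 h, with 0.99 and 0.31. At 6 h these 2 probe sets differed in sign, with 0.66 and −0.23. The one at 0.66 was called higher (limma adjusted p = 0.0388). Echs1, the short-chain enoyl-CoA hydratase, ranged from 1287 to 1741 and was called at no time, with 0.033 ± 0.18 at 24 h and a 95% interval of −0.38 to 0.44. Acaa1a, the peroxisomal thiolase, ranged from 297 to 555 without a call, and its 95% interval at 24 h was −0.44 to 0.55.

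The genes that carry electrons from the acyl-CoA dehydrogenases to ubiquinone were higher at 24 h in 3 of 3 cases. Etfdh (1451084_at), the membrane oxidoreductase that passes electrons on to ubiquinone, gave 829 and 729 at 0 h, 1099 and 1253 at 6 h, 1774 and 1849 at 12 h and 1526 and 1439 at 24 h. It was highest at 12 h, and all treated arrays were above both arrays at 0 h. Its change was 0.58 ± 0.16 at 6 h, 1.19 ± 0.16 at 12 h and 0.90 ± 0.16 at 24 h (adjusted p = 0.0331, 0.000381 and 0.00103).

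Etfa and Etfb encode the 2 subunits of the soluble electron transfer flavoprotein. Etfa (1423972_at) gave 2478 and 1924 at 0 h, 2336 and 2067 at 6 h, 2944 and 3083 at 12 h and 3913 and 3887 at 24 h. The 6 h arrays lay between those at 0 h and the later arrays lay above. Its change was 0.46 ± 0.17 at 12 h (adjusted p = 0.0587, 0.0356 with the replicate block) and 0.83 ± 0.17 at 24 h (0.00269).

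Etfb (1428181_at) gave 1630.5 and 1979.7 at 0 h, 1871 and 1929 at 6 h, 1945 and 1972 at 12 h and 2709 and 3166 at 24 h. Only the 24 h arrays stood above those at 0 h, by 0.69 ± 0.17 (adjusted p = 0.00588). Without replicate 1 at 0 h, that adjusted p was 0.0545.

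**Figure D3:**
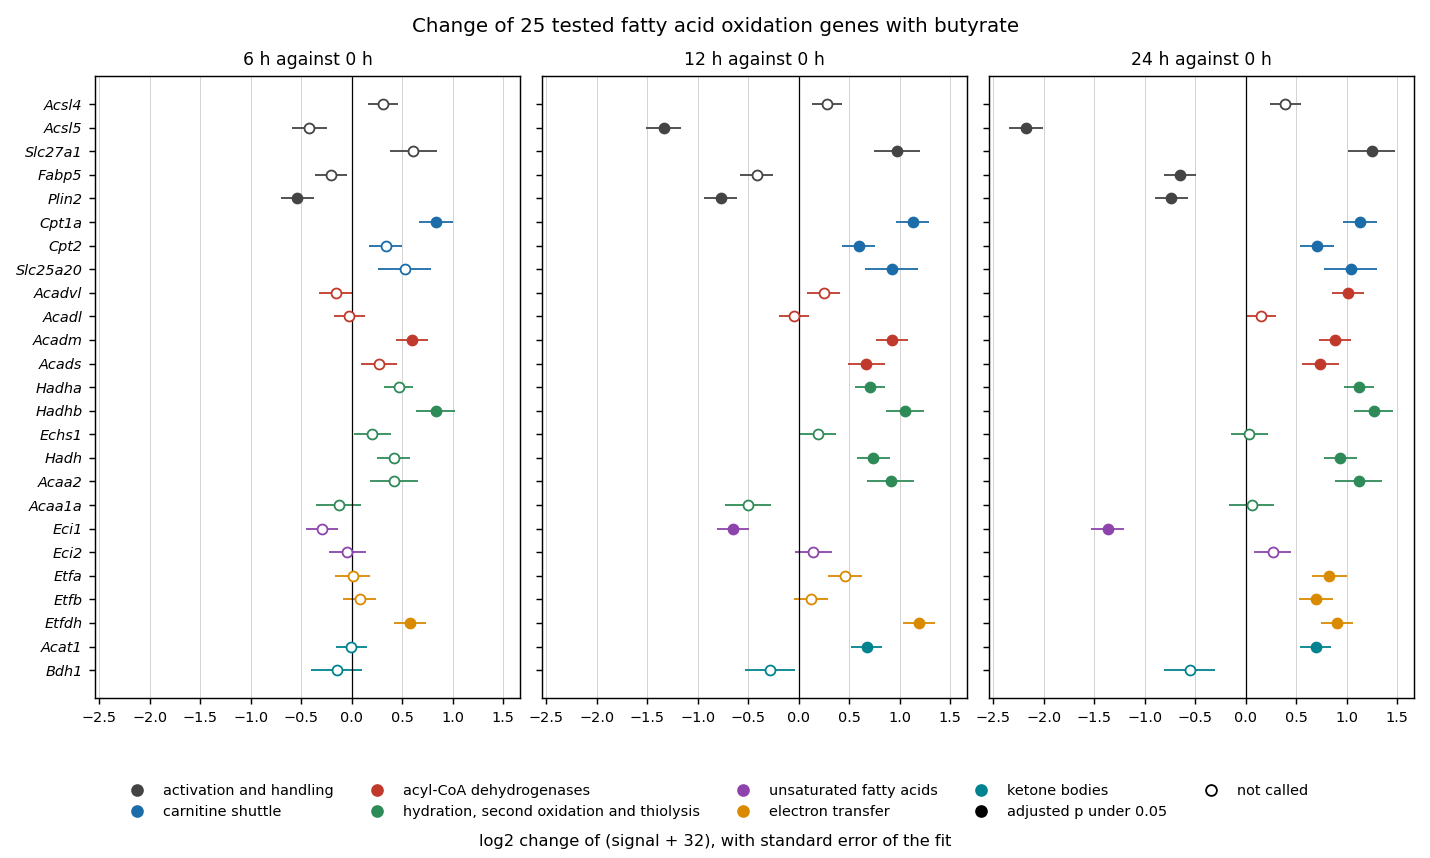
Change of the 25 tested members against 0 h on the log2(signal + 32) scale, ordered by step, at 6, 12 and 24 h; points are limma estimates, bars ± 1 SE, and filled points have an adjusted p under 0.05. At 24 h the shuttle, Acadm, Acads, Acadvl, the trifunctional subunits and the electron transfer genes lie at 0.69 or more, and Acsl5 lies at −2.18.

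Of the 2 tested genes of ketone body metabolism, Acat1 was called higher and Bdh1 was not called. Acat1 (1424183_at), the mitochondrial acetoacetyl-CoA thiolase, which acts in the closing step of butyrate oxidation and in the making and use of ketone bodies, gave 1382 and 1202 at 0 h, 1236 and 1335 at 6 h, 2153 and 1992 at 12 h and 2088 and 2119.8 at 24 h. The 6 h arrays lay between those at 0 h, and the 12 and 24 h arrays were all above them. Acat1 was higher by 0.67 ± 0.15 at 12 h and 0.69 ± 0.15 at 24 h (adjusted p = 0.00767 and 0.00429). With its next brightest probe set the 12 h change was 0.48, with an adjusted p of 0.151, and the 24 h change was 1.0, with the call kept.

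Bdh1, which interconverts acetoacetate and 3-hydroxybutyrate, ranged from 394 to 782 over the 8 arrays. It was not called, with −0.56 ± 0.25 at 24 h (adjusted p = 0.091), but it was called lower with the replicate block (0.0343).

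Of 5 tested genes of fatty acid uptake, activation and storage, 3 were lower at 24 h and 1 was higher. Acsl5 (1428082_at), which activates long-chain fatty acids to acyl-CoA, gave 1523 and 1956 at 0 h, 1235 and 1332 at 6 h, 633 and 696 at 12 h and 340.5 and 373 at 24 h. Each later time lay below the one before without overlap. The change was −0.42 ± 0.17 at 6 h (adjusted p = 0.128), −1.34 ± 0.17 at 12 h (0.00032) and −2.18 ± 0.17 at 24 h (8.57e-06), which is 4.53-fold lower and the largest change of any tested member at 24 h.

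Plin2 (1448318_at), a coat protein of lipid droplets, gave 2039 and 1847 at 0 h, 1365 and 1285 at 6 h, 1196 and 1052 at 12 h and 1244 and 1062 at 24 h. All treated arrays were below both arrays at 0 h. It was lower by 6 h, at −0.54 ± 0.16, and stood at −0.77 ± 0.16 at 12 h and −0.74 ± 0.16 at 24 h (adjusted p = 0.0472, 0.00468 and 0.0038).

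Fabp5 (1416021_a_at), a cytosolic fatty acid binding protein, gave 7619.5 and 8594 at 0 h, 7066 and 6976 at 6 h, 5722 and 6396 at 12 h and 4777 and 5527 at 24 h. The 24 h arrays were the lowest, at −0.65 ± 0.16 (adjusted p = 0.00722). Without replicate 2 at 0 h or replicate 1 at 24 h, the adjusted p was 0.0551 or 0.0565, and with the replicate block Fabp5 was also called lower at 12 h (0.0339).

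Slc27a1 (1422811_at), a membrane protein of long-chain fatty acid uptake, rose from low signals of 88.8 and 155 at 0 h, 197 and 197 at 6 h, 229 and 301 at 12 h and 279 and 376 at 24 h. All treated arrays were above both arrays at 0 h, of which 1 lay below the array-wide median. The change was 0.97 ± 0.23 at 12 h and 1.25 ± 0.23 at 24 h (adjusted p = 0.00857 and 0.00148). Acsl4, a synthetase that prefers polyunsaturated fatty acids, ranged from 1022 to 1449.8. Its 24 h change was 0.39 ± 0.15 (adjusted p = 0.052; 0.0327 with the replicate block). Its next brightest probe set gave a larger change of 0.78, which was called (adjusted p = 0.0054), and the remaining one above the filter gave 0.51. Acsl4 was called higher at 24 h in 6 of the 18 alternatives.

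The 2 tested enzymes for unsaturated fatty acids are enoyl-CoA isomerases that move a double bond so that oxidation can go on. Eci1 (1418321_at) fell, with signals of 1232 and 1378 at 0 h, 987 and 1128 at 6 h, 778 and 862 at 12 h and 462 and 508 at 24 h. Each time lay below the one before, and the 24 h arrays were far below the rest. The change was −0.30 ± 0.16 at 6 h, −0.65 ± 0.16 at 12 h and −1.37 ± 0.16 at 24 h (adjusted p = 0.249, 0.0105 and 9.02e-05), so Eci1 was 2.58-fold lower at 24 h. Eci2 ranged from 797 to 1239 and was not called, with a 95% interval of −0.14 to 0.67 at 24 h. Decr1, the dienoyl-CoA reductase, ranged from 29.6 to 79.4, below the filter.

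Ppara (1449051_at), a nuclear receptor that activates many genes of fatty acid oxidation in other tissues, also lay below the filter, with signals of 4.2 and 6.4 at 0 h, 9.4 and 18.4 at 6 h, 86.5 and 53 at 12 h and 24.2 and 61.7 at 24 h. The 4 arrays at 12 and 24 h were the highest, but all remained under the array-wide median of 144.5. In a fit without the filter its change was 1.43 at 12 h and 0.96 at 24 h (limma adjusted p = 0.0151 and 0.0411). Most of these signals, and both at 0 h, lie below the 32 added before taking logarithms, where a signal carries little information. The size of these changes is therefore uncertain.

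Several member genes have further probe sets, whose signals are separate readings of the same transcript. For the members called at 24 h, 10 other probe sets of 7 genes passed the filter, and 10 of 10 had the same sign as the one used. Of these 10, 2 had a mean below the array-wide median at 0 h, so they passed the filter through their later arrays. All 10 read the same RNA on the same arrays, for genes picked because they were called. Their shared sign is therefore no separate evidence for the calls.

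Some 12 h calls also rested on the filter or on single arrays. Without the filter, Cpt2, Slc25a20, Acads and Acaa2 lost the 12 h call (limma adjusted p = 0.0547, 0.0751, 0.054 and 0.0535). Cpt2, Slc25a20, Acads, Acaa2, Eci1, Slc27a1 and Acat1 each lost the 12 h call when 1 of the arrays at 0 or 12 h was left out. Without replicate 2 at 12 h or replicate 1 at 0 h, fewer members were called higher at 12 h, and fewer of all genes were called as well. Cpt1a, Acadm, Hadha, Hadhb, Hadh, Etfdh, Acsl5 and Plin2 kept it in all 18 alternatives.

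Changes between neighbouring times were called for few members. From 6 to 12 h, 1 of 25 was higher (4%, against 2.03% of all genes) and 1 was lower (4%, against 2.14%). Acat1 rose by 0.68 ± 0.15 and Acsl5 changed by −0.92 ± 0.17 (adjusted p = 0.0409 and 0.02). From 12 to 24 h, 1 was higher (4%, against 1.81%) and 2 were lower (8%, against 3.58%). Acadvl rose by 0.77 ± 0.16, and Eci1 and Acsl5 changed by −0.72 ± 0.16 and −0.84 ± 0.17 (adjusted p = 0.0218, 0.0285 and 0.0187). With the replicate block, Etfdh was also called higher from 6 to 12 h (0.0365) and Etfb from 12 to 24 h (0.0365). Each of the 5 neighbour calls was lost without the filter and when any 1 of the 4 arrays compared was left out. With the next brightest Acat1 probe set, the change from 6 to 12 h was 0.018.

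Genes around the members were counted by list at 24 h against 0 h. Of 29 other oxidation genes 19 were tested, and 6 were higher (31.6%) and 1 lower (5.26%), beside the 24.6% and 23.5% of all genes. Of the 6, 4 lay below the array-wide median on both arrays at 0 h and passed the filter through later arrays, where they were high. With the replicate block 8 were higher, the additions being Hsd17b4 and Abcd3. Acad11, a further acyl-CoA dehydrogenase, went from 278 and 339.7 at 0 h to 904 and 1097 at 24 h. Its change was 1.60 ± 0.18 (adjusted p = 7.15e-05). Acadsb, the short and branched-chain dehydrogenase, changed by 0.94 ± 0.20 (adjusted p = 0.00291). Hacl1, a peroxisomal lyase of alpha-oxidation, is 1 of the 4 with low signals at 0 h, with 116 and 67.4 then and 321 and 288 at 24 h. Hsd17b10 was lower by a narrow margin, at −0.39 ± 0.15 with an adjusted p of 0.0496, and lost the call in 12 of 18 alternatives.

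Of 8 other ketone body genes 3 were tested, and 2 were lower (66.7%, against 23.5% of all genes). With only 3 genes, that share says little. Aacs, which activates acetoacetate in the cytosol for lipid synthesis, went from 1562 and 1833 to 629 and 739.8, a change of −1.27 ± 0.16 (adjusted p = 0.000164). Oxct1, which activates ketone bodies for use in the mitochondrion, changed by −0.61 ± 0.17 (adjusted p = 0.0125), but its other probe set gave −0.27 with an adjusted p of 0.274. Without replicate 1 at 0 h or replicate 2 at 24 h, Oxct1 had an adjusted p of 0.0753 or 0.0545.

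Of 38 other genes of fatty acid activation, transport and lipid droplets 17 were tested. Of these, 8 were higher (47.1%, against 24.6% of all genes) and 1 lower (5.88%, against 23.5%). With the replicate block 3 were lower, the additions being Acsbg1 and Hilpda. Fabp4, a fatty acid binding protein of fat cells and macrophages, went from 7.3 and 3.6 to 155 and 162, and Lipe, hormone-sensitive lipase, from 59 and 100.4 to 213 and 253. Both lay below the array-wide median at 0 h and passed the filter through later arrays, and the Fabp4 signals at 0 h are below the added 32, so no size of change is given. Fabp4 is also 1 of the adipocyte markers above. Acss2, which makes acetyl-CoA from acetate, changed by 2.07 ± 0.17 (adjusted p = 1.18e-05). Plin3, another droplet coat protein, changed by −0.51 ± 0.18 (adjusted p = 0.0404) and lost the call in 6 of 18 alternatives.

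Of 19 genes of peroxisome proliferator-activated receptor control and its targets only 6 were tested. Of these, 1 was higher and 1 lower (16.7% each, against 24.6% and 23.5% of all genes). Foxo1, a transcription factor of fasting metabolism, changed by 0.80 ± 0.15 (adjusted p = 0.00159). Rxra, the partner receptor, went from 311 and 272 to 139.6 and 123, below the array-wide median, and its other probe set gave −0.32 and was not called (0.118). Of 16 synthesis genes 13 were tested, with 3 higher (23.1%) and 4 lower (30.8%), beside the 24.6% and 23.5% of all genes. Srebf1, a transcription factor of lipid synthesis, changed by 1.07 ± 0.16 (adjusted p = 0.000405). Mlxipl, another such factor, went from 12.5 and 74.6 at 0 h, apart from each other and below the array-wide median, to 174 and 149.8. It passed the filter through later arrays, and its change was 0.86 without replicate 1 at 0 h and 2.12 without replicate 2. The third rise, of the elongase gene Elovl5, was 0.71 ± 0.23 (adjusted p = 0.0282) and was lost in 4 of 18 alternatives, with 0.46 without replicate 1 at 24 h. Elovl6, Fads2 and Fasn, an elongase, a desaturase and fatty acid synthase, changed by −1.72 ± 0.16, −1.38 ± 0.19 and −1.09 ± 0.18 (adjusted p = 2.08e-05, 0.000238 and 0.000668).

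The acyl-CoA dehydrogenases and the electron transfer proteins use the cofactor FAD. Of 5 genes of riboflavin and FAD supply 3 were tested, and 2 were higher (66.7%, against 24.6% of all genes). A list of 3 genes is too small to be set apart from that share. Rfk, riboflavin kinase, went from 1253 and 1597 to 2853 and 2997, a change of 1.03 ± 0.17, and Flad1, FAD synthetase, changed by 0.66 ± 0.17 (adjusted p = 0.00081 and 0.00896). Without replicate 2 at 0 h or replicate 1 at 24 h, Flad1 had an adjusted p of 0.0511 or 0.0547.

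**Figure D4:**
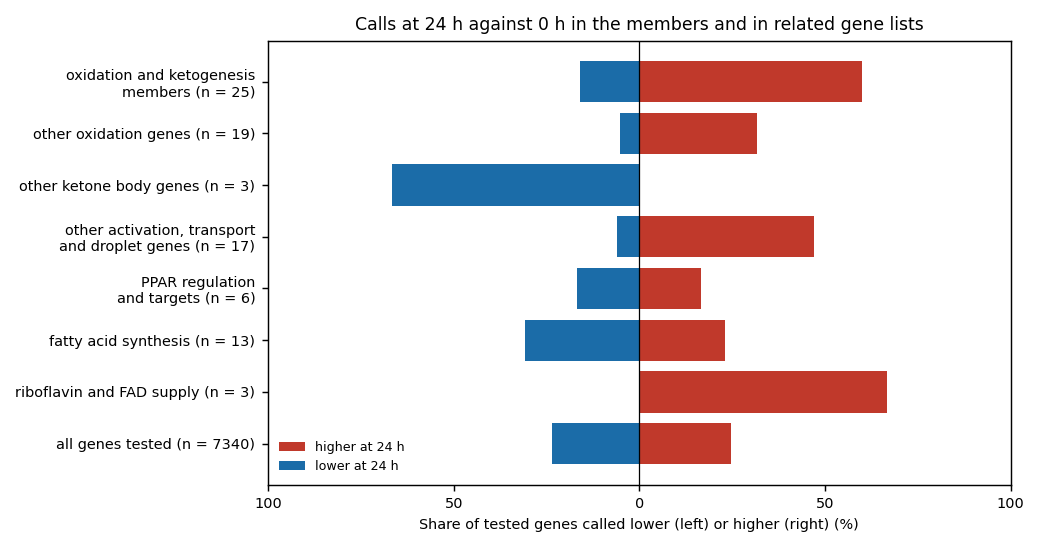
Share of tested genes called higher or lower at 24 h against 0 h (percent, limma adjusted p under 0.05) in the 25 members, in each related list and in all 7340 genes. Members and lists were chosen with earlier results of these data known. Of the members 60% were higher and 16% lower, against 24.6% and 23.5% of all genes; several lists hold only 3 or 6 tested genes, and 4 of the 6 higher oxidation genes outside the members were below the median at 0 h.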

How the data were processed

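Messenger RNA was measured in 8 samples with Affymetrix Mouse Expression Array 430A arrays and phycoerythrin-labelled RNA, per the labels. The deposited values are a linear intensity (signal) for each of 22690 probe sets, scaled by the authors to a common level, as the equal trimmed means show. The program that summarised the probes was not given in the sources used here. The table carries no detection calls.

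Of the probe sets, 64 controls were left out, and a gene was named only from the 20380 probe sets that the platform annotation ties to 1 gene. Probe sets with at least 2 of 8 arrays above the median were kept, and the brightest per gene was used. The analysis ran on log2(signal + 32) in limma 3.58.1 (R 4.3.3), with lmFit and eBayes over all 8 arrays and 7340 genes, a residual df of 4, a prior df of 6.37 and Benjamini-Hochberg adjustment over all genes in each comparison. Groups and replicate numbers came from the sample titles. Only 2 arrays per time limit the precision. Between 21.2% and 26.4% of an array's signals lay below the added 32. The fitting code was tested on simulated data.

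The replicate numbers were checked for pairing: the differences between replicates 2 and 1 correlated across genes by 0.125 to 0.382 over all 6 pairs of times, so same-numbered arrays were taken as paired. This comes from the data, not the labels. The main fit has no replicate block, and blocked values are given where they change a member's call or the count of a related list.

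The members and lists were chosen with earlier results of these data known. Array by array values are given for members called against 0 h and for Cpt1a, Cpt2, Acads, Hadh, Acat1 and Ppara. From each related list, called genes with the 3 largest rises and falls at 24 h are named. Promoter sequences are from RefSeq (GRCm38.p6), for 25 of 29 members. The 18 alternatives changed the added value, filter, scaling, replicate block, variance model, arrays or probe set used.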

Additional observations from a re-analysis of the deposited data

Results flagged for a closer look

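The 5 results here are member changes between neighbouring times in butyrate that passed a test of that difference in the main fit. None of the 5 kept its call without the filter. With the next brightest Acat1 probe set, the change from 6 to 12 h was 0.018. From 6 to 12 h, Acsl5 changed by −0.919 on the log2(signal + 32) scale and Acat1 by 0.676 (limma adjusted p = 0.02 and 0.0409). From 12 to 24 h, Acadvl changed by 0.766, Eci1 by −0.72 and Acsl5 by −0.841 (adjusted p = 0.0218, 0.0285 and 0.0187). Acsl5, the long-chain acyl-CoA synthetase gene, was the member called over both steps. Groups of 2 arrays are too small for a check on single arrays that stand apart.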

How the results depend on the processing

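Of 1440 member results over 18 alternatives, 1315 kept their direction and side of the threshold, 87 lost the call, 21 gained it and 17 turned direction, of which 0 had been called. A member's estimate stays the same without the filter, with the replicate block or another variance model, and with only the 4 arrays compared. It also stays the same when an array of another time is left out. In these settings the direction could not turn. At 24 h, 15 to 16 members were higher and 4 to 5 lower in all alternatives that kept every array, and the replicate block gave 16 higher and 5 lower. Over all 7340 genes the block gave 2031 higher and 1938 lower at 24 h. At 12 h it gave 13 and 4 members, and 1600 and 1514 of all genes. Leaving out 1 array at a time gave 12 to 15 higher and 3 to 4 lower at 24 h, 8 to 12 and 2 to 4 at 12 h, and 1 to 4 and 0 at 6 h. The same fits gave median changes of 0.648 to 0.777, 0.358 to 0.558 and 0.135 to 0.29 at 24, 12 and 6 h. Where they left out an array of a compared time, fewer of all genes were called as well. For 12 h against 6 h they gave 0 higher, 0 to 1 lower and a median of 0.15 to 0.253, and for 24 h against 12 h 0 to 1, 0 to 2 and 0.0458 to 0.126.

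With every array kept, the counts at 6 h moved from 4 higher to 1 without the filter and 2 with only the 4 arrays compared. The 1 lower became 0 with an added value of 16, without the filter, with median centring, with only the 4 arrays compared and with the other probe sets. For 12 h against 0 h, the 12 higher became 8 without the filter and 11 with the other probe sets. They became 13 with an added value of 64, the replicate block or a trended robust variance. For 12 h against 6 h, the 1 higher became 2 with an added value of 64, the stricter filter (at least 4 arrays), quantile normalization, the replicate block or a trended robust variance. It became 0 without the filter, with only the 4 arrays or with the other probe sets, and the 1 lower became 0 without the filter and with only the 4 arrays. For 24 h against 12 h, the 1 higher became 2 with the replicate block or a trended robust variance, and both directions became 0 without the filter. Median centring gave a median change of 0.652 at 24 h against 0 h and 0.0662 from 12 to 24 h. The replicate block changed no member call other than those given with the results. The cause of these shifts was not tested.

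Turned directions, all of changes that were not called, were these. At 6 h, Acadl was 0.00966 with quantile normalization, and Acat1 was 0.00862 with median centring and 0.46 with its other probe set. Echs1 at 24 h was −0.02 with median centring. With 1 array left out at a time, the 6 h changes ranged from −0.455 to 0.2 for Acaa1a, −0.22 to 0.13 for Eci2, −0.0584 to 0.217 for Etfb, −0.171 to 0.188 for Etfa, −0.46 to 0.161 for Bdh1 and −0.103 to 0.093 for Acat1. In the same fits, Etfb ranged from −0.0154 to 0.26 at 12 h, and at 24 h Acaa1a ranged from −0.0918 to 0.207 and Echs1 from −0.0542 to 0.12.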

Other observations

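Some probe sets belong in no comparison above because the annotation ties them to several genes or because they stayed below the filter. The 2 probe sets shared by Acaa1a and Acaa1b, which encode peroxisomal thiolases, were 355 and 415 at 0 h against 620.3 and 540 at 24 h, and 801 and 625 against 1056 and 946. On both, the arrays at 24 h lay above those at 0 h, whereas the probe set of Acaa1a alone overlapped between these times. Angptl4, a secreted lipase inhibitor and a target of peroxisome proliferator-activated receptors, was 69.1 and 64 at 0 h and 8.1 and 10 at 24 h. Pdk4, another such target, ranged from 4.3 to 37.2 over the 8 arrays. The receptor gene Pparg ranged from 4.2 to 16.1 and Ppard from 2.7 to 5.9. Ppargc1a, a further gene below the filter, went the other way from Angptl4, from 59.2 and 58.4 at 0 h to 88.5 and 86 at 24 h. The Angptl4 signals at 24 h and all signals of Pparg and Ppard lie below the added 32.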
